A study of Homo sapiens with 18 samples.

Results

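The transcripts described here are 4 long noncoding RNAs that are linked to cell stress: NEAT1, MALAT1, PVT1 and MIR22HG. They were selected by gene symbol, as 4 of the 56269 genes in the deposited table. The rule holds no threshold on a measured value, but the 4 were proposed with earlier results of these data known. All 4 passed the filter on low values (a mean normalized count of at least 10 over the libraries), as did 13686 genes in all.

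Long noncoding RNAs are transcripts that do not encode a known protein, and many, though not all, are spliced and polyadenylated like messenger RNAs. NEAT1 is the architectural RNA of paraspeckles, nuclear bodies that assemble on its long isoform and hold RNA-binding proteins. MALAT1 is an abundant nuclear RNA of the neighbouring nuclear speckles, which store splicing factors. PVT1 lies downstream of MYC and hosts several microRNAs, and it is known as a target of the stress-activated factor p53. MIR22HG is the primary transcript from which the microRNA miR-22 is cut, and it is known to respond to several chemical stresses.

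The cells were IMR90, a line of human lung fibroblasts, and gave 18 libraries in 6 groups of 3 biological replicates. For 6 h they received either PBS or 20 μg/ml of hyaluronan (HA) made by naked mole-rat skin fibroblasts (NSF). cNSF-HA was that HA mixed with an already heat-inactivated hyaluronidase, and fNSF-HA was the same HA partially cut by the active enzyme. Without further treatment these were the groups PBS, cNSF-HA and fNSF-HA, and the other 3 groups were then exposed to 200 μM tert-butyl hydroperoxide (tBHP), an organic peroxide that oxidizes cells. That exposure lasted 1 h, began once the medium with HA or PBS had been removed, and was followed by 5 h before collection. The groups without tBHP were collected at the end of the pre-incubation, so the groups with tBHP were also collected 6 h later and had their medium changed. In every comparison of groups with and without tBHP, called the response to tBHP here, the oxidant cannot be told apart from this added time and the change of medium. No group carried a genetic change, and all libraries came from a single cell line. Libraries were made from polyadenylated RNA with a kit that does not mark the strand. The level of a gene is given as its normalized count, which is its number of reads over the library's size factor.

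The libraries held between 20261103 and 26287660 reads on genes. Of the fibroblast markers, 12 of 12 passed the filter, among them COL1A1, COL1A2, VIM and FN1. Of 26 markers of epithelial, endothelial, blood and muscle cells, 7 passed and 12 had a mean under 1 normalized count in the libraries with tBHP. The endothelial marker CDH5 and the keratin KRT5 were at 0 in every library. Among those that passed, the endothelial marker TIE1 had a mean of 447 normalized counts, the keratin KRT19 158 and the epithelial CLDN4 1294. Replicates were further apart with tBHP: over all genes tested, the median log2 SD of a group was 0.076 without it and 0.21 with it. By the chi-square per degree of freedom over all genes, replicates without tBHP lay between 1.48 and 2.69 from each other, and each group with tBHP held a library farther from the others. In PBS cells with tBHP this was replicate 1 (18.5 and 15.6 from the others, which were 4.22 apart), in cNSF-HA cells with tBHP replicate 3 (35.7 and 28.2, against 2.86) and in fNSF-HA cells with tBHP replicate 2 (32.1 and 71.2, against 13.5). The mean log2 responses of the 4 transcripts without each of these libraries in turn were 0.28 to 0.34 for NEAT1, -0.13 to -0.03 for MALAT1, 0.86 to 0.89 for PVT1 and 0.57 to 0.65 for MIR22HG, and in no case did a call change. In single pre-incubations, MALAT1 changed by 0.12 after PBS without replicate 1, and MIR22HG by 0.66 after cNSF-HA without replicate 3. The number of genes that differed between cNSF-HA and fNSF-HA after tBHP went from 0 to 5586 when replicate 3 of the fNSF-HA cells was left out and stayed at 0 without replicate 2. The share of reads on mitochondrial genes was 2.48% to 2.64% without tBHP and 2.69% to 3.51% with it, the highest in replicate 2 of the fNSF-HA cells. Its part in the results below was not tested.

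NEAT1 and MALAT1 lie in tandem on chromosome 11. In GRCh38 with the GENCODE 29 annotation, NEAT1 covers chr11:65422774-65445540 on the plus strand (22767 nt), and MALAT1 covers chr11:65497688-65506516 on the same strand (8829 nt). They are separated by 52147 nt. MIR22HG covers chr17:1711493-1717174 on the minus strand, with 2986 nt of exons. The RefSeq start used for its promoter below lies inside this span. In GENCODE 29 the outermost start of MIR22HG overlaps the start of the protein-coding gene WDR81 on the opposite strand by 652 nt. Reads from that overlap, and reads from antisense transcripts inside MALAT1, cannot be assigned to a strand in these libraries.

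Both arms of the microRNA cut from MIR22HG are shown because they are the product for which the transcript is named. The sequences are those of RefSeq (GRCh38.p14), with the seed, bases 2 to 8 from the 5′ end, in capitals.
hsa-miR-22-3p: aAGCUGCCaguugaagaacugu
hsa-miR-22-5p: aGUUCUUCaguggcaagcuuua
The 3p arm lies at chr17:1713914-1713935 and the 5p arm at chr17:1713952-1713973, both on the minus strand and inside MIR22HG. The seeds differ between the arms. Mature microRNAs are too short for these libraries, so only the host transcript was measured.

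Of the 4 transcripts, 3 were higher after tBHP when the 3 pre-incubations were averaged, and MALAT1 did not pass the test. The mean log2 changes were 0.88 for PVT1, 0.59 for MIR22HG and 0.30 for NEAT1. In this comparison 32.6% of all genes tested were higher at an adjusted p under 0.05, so that a rise after tBHP was common among all genes. The pre-incubation with HA changed none of the 4 past the threshold. The plot of normalized counts by library shows the levels behind these values.

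**Figure D1:**
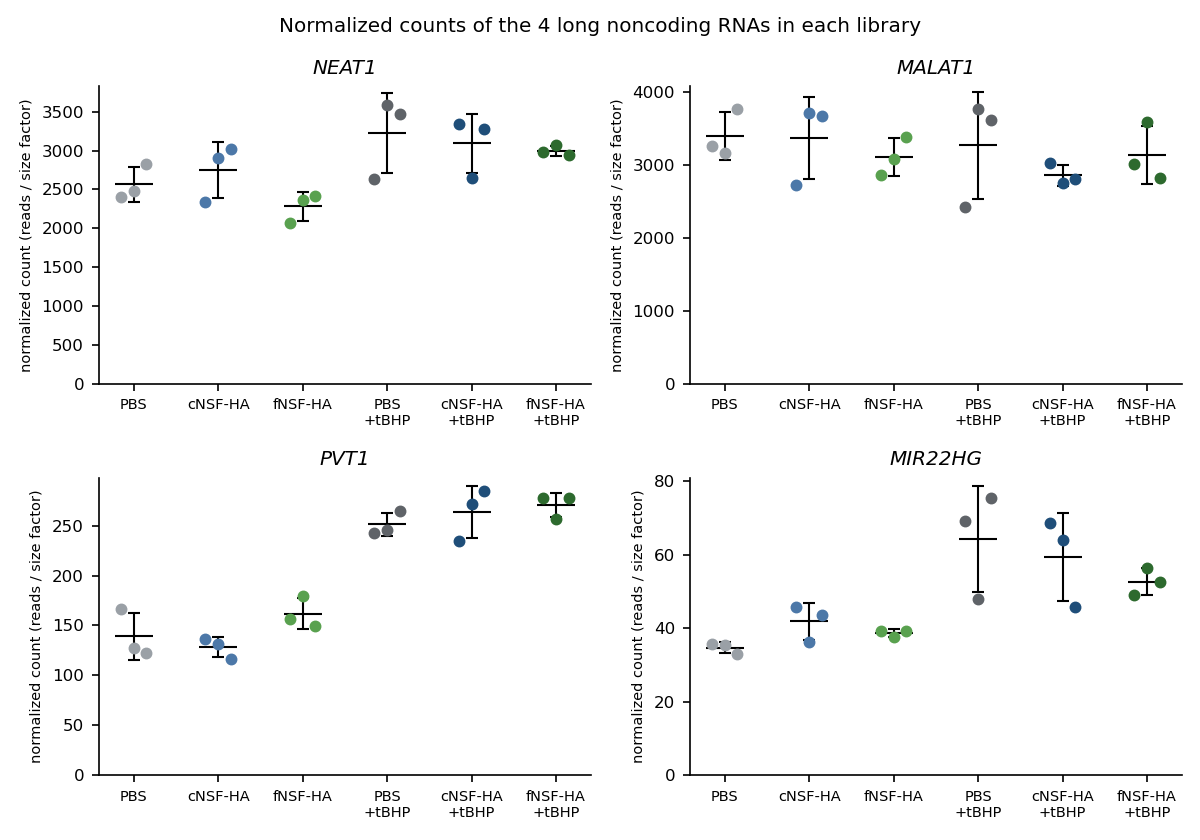
Normalized counts (reads divided by the size factor, linear axes from 0) of NEAT1, MALAT1, PVT1 and MIR22HG in each of the 18 libraries, with points for replicates, horizontal bars for group means and error bars for the SD (n = 3). The 9 PVT1 points with tBHP all lie above the highest point without it (179), while the MALAT1 points of the 2 conditions overlap.

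PVT1, which covers chr8:127794533-128101253 on the plus strand with 5493 nt of exons, separated the libraries with tBHP from those without it completely. In PBS cells it had 166, 128 and 123 normalized counts without tBHP and 243, 246 and 265 with it. In cNSF-HA cells it had 136, 131 and 117 without and 235, 272 and 285 with tBHP. In fNSF-HA cells it had 157, 179 and 149 without and 278, 256 and 278 with tBHP. The lowest library with tBHP, at 235, was above the highest without it, at 179, and so the groups overlapped in no pre-incubation. Of all genes tested, 63.8% had groups that did not overlap with PBS, 63.7% with cNSF-HA and 48.7% with fNSF-HA. These shares refer to groups within a single pre-incubation. The share of genes that separated over all libraries together, as PVT1 did, was not determined, so how common this was is not known. The log2 change was 0.86 after PBS (standard error 0.12, adjusted p = 1.3e-05 from limma), 1.04 after cNSF-HA (0.12, adjusted p = 2.0e-06) and 0.74 after fNSF-HA (0.12, adjusted p = 8.5e-05). In the same comparisons, 24.2%, 24% and 19.2% of all genes tested were higher. The mean log2 change was 0.88 (standard error 0.070, 95% confidence interval 0.73 to 1.03, adjusted p = 3.4e-09). A two-sided exact permutation of the tBHP labels within each pre-incubation gave p = 0.00025, the smallest that its 8000 arrangements allow.

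The libraries of PVT1 with tBHP were also close to each other. On the log2 scale, the SD of its replicates was 0.099 with tBHP, where 11.0% of the genes tested had a smaller one, and 0.17 without tBHP, where 77.9% of the genes tested had a smaller SD. Of the order of the 6 group means, from 128 ± 10.1 in cNSF-HA cells (SD, n = 3) to 271 ± 12.5 in fNSF-HA cells with tBHP, the 3 lowest were the groups without tBHP. The libraries of the 3 groups with tBHP, at means of 251 ± 11.8, 264 ± 25.7 and 271 ± 12.5, overlapped in each comparison.

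MIR22HG had the lowest level of the 4, at 37 to 69 reads in a library. In PBS cells it had 35.7, 35.5 and 32.9 normalized counts without tBHP and 69.2, 47.9 and 75.5 with it. In cNSF-HA cells it had 45.8, 36.2 and 43.4 without and 68.5, 63.9 and 45.7 with tBHP. In fNSF-HA cells it had 39.2, 37.4 and 39.1 without and 49.1, 56.4 and 52.4 with tBHP. Of the 9 libraries with tBHP, 8 were above the highest library without it, and how many genes did the same was not determined. The exception was replicate 3 of the cNSF-HA cells with tBHP, which lay just below replicate 1 without tBHP. The log2 change was 0.84 after PBS (standard error 0.19, adjusted p = 0.00105 from limma) and 0.48 after cNSF-HA (0.19, adjusted p = 0.038). After fNSF-HA it was 0.44 (95% confidence interval 0.044 to 0.83, adjusted p = 0.0693 from limma), which missed the threshold. The groups did not overlap there, as was the case for 48.7% of all genes tested. The cNSF-HA call was lost (adjusted p up to 0.147) without any of replicates 2 and 3 without tBHP and replicates 1 and 2 with tBHP. The mean log2 change was 0.59 (standard error 0.11, adjusted p = 9.8e-05, exact permutation p = 0.0005).

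NEAT1 rose by less, and its groups overlapped. In PBS cells it had 2397, 2477 and 2822 normalized counts without tBHP and 2637, 3587 and 3465 with it. In cNSF-HA cells it had 2334, 2899 and 3017 without and 3345, 2650.1 and 3281 with tBHP. In fNSF-HA cells it had 2066, 2364 and 2410.3 without and 2978, 3067 and 2944 with tBHP. Of the 9 libraries with tBHP, 5 were above the highest library without it, and how many genes did the same was not determined. The groups were apart in fNSF-HA cells alone, where they were apart for 48.7% of all genes tested. The log2 change was 0.32 after PBS (standard error 0.12, adjusted p = 0.0332 from limma) and 0.40 after fNSF-HA (0.12, adjusted p = 0.0132). After cNSF-HA it was 0.17 (95% confidence interval -0.084 to 0.42, adjusted p = 0.253), which missed the threshold. The call in PBS cells was lost without 4 of its 6 libraries in turn (adjusted p up to 0.142): replicates 1 and 2 without tBHP and replicates 2 and 3 with it. The call in fNSF-HA cells was lost without replicate 1 of the cells without tBHP (adjusted p = 0.0697). The mean log2 change over the 3 pre-incubations was 0.30 (standard error 0.070, adjusted p = 0.00106, exact permutation p = 0.003), and it stayed past the threshold without any single library (0.26 to 0.34).

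MALAT1 had no change past the threshold in any pre-incubation. In PBS cells it had 3261, 3156 and 3767 normalized counts without tBHP and 2422, 3757 and 3615 with it. In cNSF-HA cells it had 2722, 3701 and 3668 without and 3016, 2745 and 2802 with tBHP. In fNSF-HA cells it had 2854, 3078 and 3381 without and 3007, 3582 and 2814 with tBHP. The libraries overlapped in every pre-incubation, and none of the 9 with tBHP was above the highest without it. The log2 changes after PBS, cNSF-HA and fNSF-HA were -0.08, -0.22 and 0.0096 (adjusted p = 0.679, 0.214 and 0.966 from limma). The mean was -0.10 (95% confidence interval -0.28 to 0.080, adjusted p = 0.317, exact permutation p = 0.312).

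**Figure D2:**
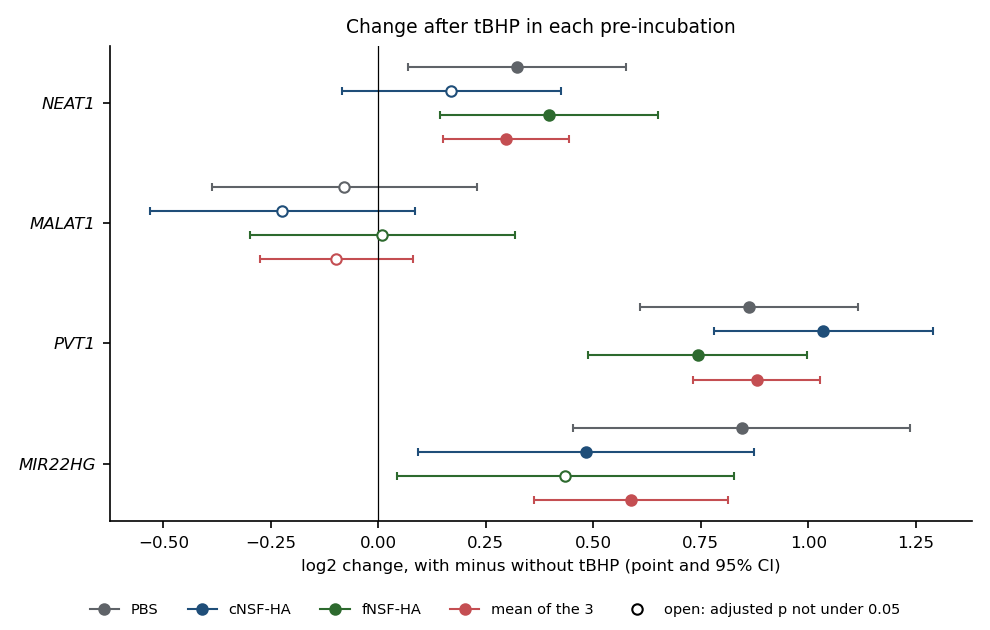
Log2 change in normalized count with tBHP minus without it (horizontal axis, points with 95% confidence intervals from limma) for the 4 transcripts in each pre-incubation and averaged over the 3. Filled points passed the threshold; MIR22HG in fNSF-HA cells (0.44), NEAT1 in cNSF-HA cells (0.17) and all 4 values of MALAT1 did not.

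The sizes of these changes depended on whether values were adjusted for base composition and transcript length. Across all genes, each library's values followed transcript GC content and length in its own way, and the fitted trend at the position of MALAT1 (39.6% GC) was lower by -0.37 on the log2 scale in the libraries with tBHP. At NEAT1 (45.5% GC) the fitted trend differed by -0.11, at PVT1 (51.1% GC) by 0.11 and at MIR22HG (54.0% GC) by 0.16. Once the trend was removed, the mean log2 change of MALAT1 turned from -0.10 to 0.27 (adjusted p = 0.000151 from limma), and that of NEAT1 went from 0.30 to 0.41. PVT1 went from 0.88 to 0.77 and MIR22HG from 0.59 to 0.43, and both stayed past the threshold. The direction of the MALAT1 change depended on this step, and the directions of the other 3 did not. Whether the trend arose in the cells or in the preparation of the libraries was not tested.

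The ratio of NEAT1 to MALAT1 reads within a library separated the conditions in every pre-incubation. This measure was chosen after the values had been seen and is given with no test. In PBS cells there were 0.735, 0.785 and 0.749 NEAT1 reads per MALAT1 read without tBHP and 1.09, 0.955 and 0.959 with it. In cNSF-HA cells there were 0.857, 0.783 and 0.822 without and 1.11, 0.965 and 1.17 with tBHP. In fNSF-HA cells there were 0.724, 0.768 and 0.713 without and 0.990, 0.856 and 1.05 with tBHP. Over all pre-incubations, only the lowest library with tBHP (0.856) fell below the highest without it (0.857). The mean log2 change of the ratio was 0.40 after PBS, 0.39 after cNSF-HA and 0.39 after fNSF-HA. With the GC and length trend removed, the mean difference between the changes of the transcripts fell from 0.39 to 0.14.

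Within groups the levels of NEAT1 and MALAT1 moved together. Replicate 1 of the PBS cells with tBHP lay below its group mean by -0.28 (log2) for NEAT1 and by -0.40 for MALAT1, and replicate 1 of the cNSF-HA cells without tBHP lay below by -0.23 and -0.29. Over the 18 libraries the deviations from the group means had a Pearson correlation of 0.87, and 0.0097% of the 10312 other genes with a mean of at least 100 were closer to NEAT1 by this measure. The points share library and normalization, and the correlation is given as a description. PVT1 and MIR22HG did not share it: the correlations of their deviations with those of NEAT1 were -0.29 and -0.39, and with each other -0.14.

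**Figure D3:**
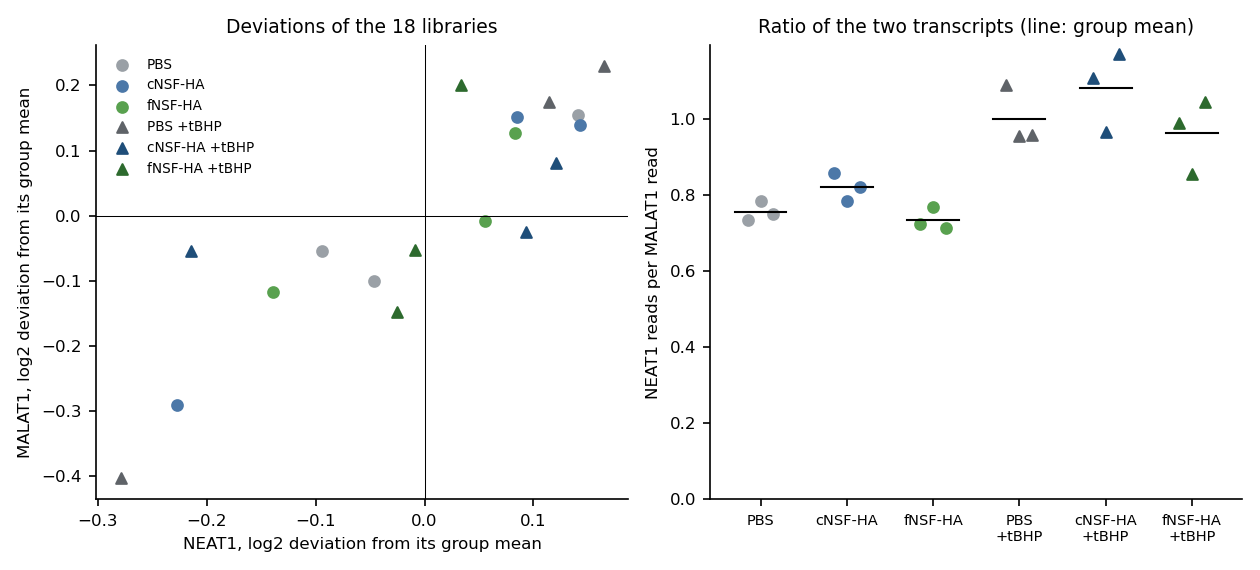
Left, deviations (log2) of NEAT1 and of MALAT1 from their group means in the 18 libraries, with colours for groups and triangles for tBHP; libraries low for one transcript were mostly low for the other (r = 0.87). Right, NEAT1 reads per MALAT1 read in each library on a linear axis from 0, with a line at each group mean; the values run from 0.713 to 0.857 without tBHP and from 0.856 to 1.17 with it.

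Among the transcripts, levels can be compared only per length, and only for RNA captured by its poly(A) tail. RNA without such a tail is not counted in full in these levels or in the ratio of NEAT1 to MALAT1. How much of each transcript lacks a tail was not measured. Per kilobase of exon, MALAT1 had a mean of 384 normalized counts in PBS cells, NEAT1 had 113, PVT1 25.3 and MIR22HG 11.6. The place of NEAT1 depends on its isoform: reads were counted per gene, and divided by the 3524 nt of its short annotated transcript NEAT1-203 the same reads would give 728 per kilobase, above the 390 of MALAT1 over its longest transcript. The gene counts do not separate the long isoform, which builds paraspeckles, from the short one.

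The comparison of HA groups asked whether HA, or the length of its polymer, set the level of these transcripts before or after the oxidant. None of the 4 passed the threshold in any of the 6 comparisons. Over all genes, limma called 0% of the genes tested in 5 of the comparisons, and 0.139% between fNSF-HA and PBS cells after tBHP. At an unadjusted p under 0.05 the numbers of genes were 126 for cNSF-HA against PBS, 109 for fNSF-HA against PBS and 206 for cNSF-HA against fNSF-HA without tBHP. After tBHP they were 1183, 3102 and 4412 in the same order, and at an adjusted p under 0.05 edgeR called 0, 36 and 0 genes and DESeq2 5, 442 and 923 on the recovered reads. Without tBHP edgeR called 0 in each and DESeq2 0, 3 and 0.

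Before the oxidant, PVT1 had 128 ± 10.1 normalized counts with cNSF-HA and 162 ± 15.7 with fNSF-HA (SD, n = 3). These groups did not overlap, as was the case for 25% of all genes tested. The log2 difference was -0.33 (95% confidence interval -0.59 to -0.079), and its unadjusted p of 0.0132 in limma's fit did not survive adjustment (adjusted p = 1.00). NEAT1 differed in the other direction, with 2749.9 ± 365 for cNSF-HA and 2280.0 ± 187 for fNSF-HA (log2 difference 0.26, 95% confidence interval 0.010 to 0.52, adjusted p = 1.00 from limma), and these groups overlapped. When only these 6 libraries entered the fit, the NEAT1 difference passed the threshold (adjusted p = 0.00513 from limma), with 980 genes called in all. PVT1, whose groups did not overlap, was not called in that fit. The log2 SD of NEAT1 replicates without tBHP was 0.15, against a median of 0.076 over all genes tested. MIR22HG had 41.8 ± 5.02 normalized counts with cNSF-HA, 38.6 ± 1.00 with fNSF-HA and 34.7 ± 1.58 with PBS, and neither HA group overlapped PBS. The groups did not overlap for 15.2% and 14% of all genes tested there. Its log2 differences of 0.26 (95% confidence interval -0.13 to 0.65) and 0.15 (-0.24 to 0.54) did not pass the threshold. The 3 differences of MALAT1 without tBHP lay between -0.13 and 0.10.

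After tBHP the 12 differences between HA groups lay between -0.26 and 0.15 on the log2 scale. The value farthest from 0 was that of MIR22HG between fNSF-HA and PBS cells, at -0.26 (95% confidence interval -0.65 to 0.13, adjusted p = 0.397 from limma). The groups of all 4 transcripts overlapped in each of these comparisons. For PVT1 the interval of the difference between cNSF-HA and fNSF-HA cells was -0.30 to 0.21, and for NEAT1 it was -0.22 to 0.29. Without replicate 3 of the fNSF-HA cells with tBHP these differences were -0.02 and 0.03, and that of MALAT1 was -0.20, against -0.13 with all libraries. Without replicate 2 of that group they were -0.079, 0.055 and -0.028, and under neither setting did any of the 4 pass the threshold.

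**Figure D4:**
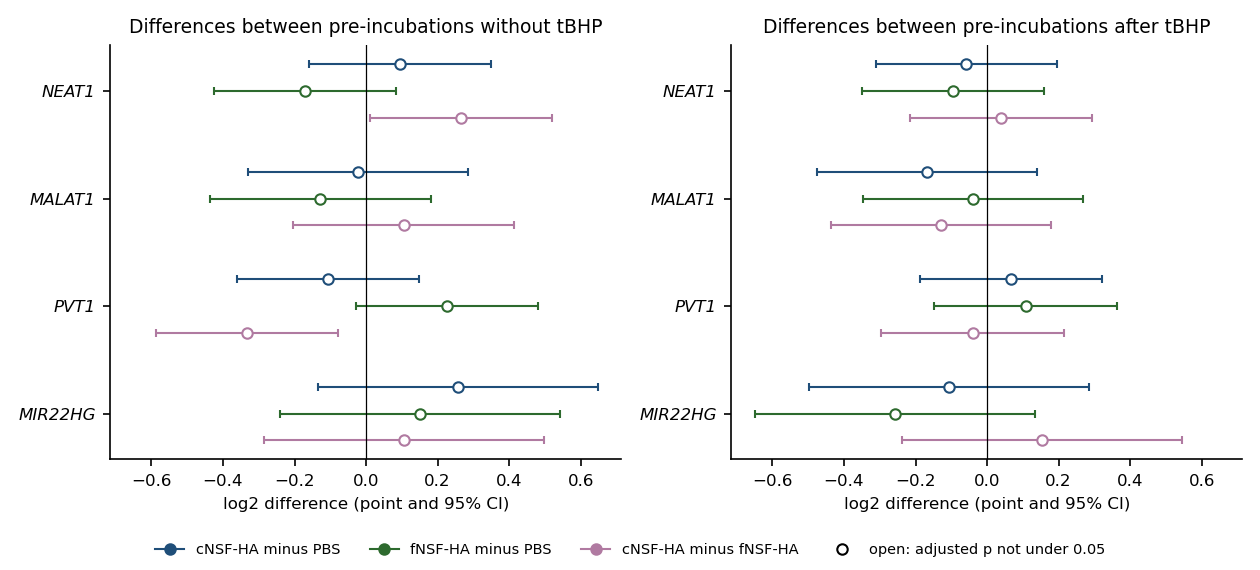
Log2 differences in normalized count between pre-incubations (horizontal axes, points with 95% confidence intervals from limma) for the 4 transcripts, without tBHP on the left and after tBHP on the right. All points are open, since none passed the threshold; the interval of PVT1 for cNSF-HA minus fNSF-HA without tBHP runs from -0.59 to -0.079.

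For none of the 4 did the difference between 2 responses to tBHP pass the threshold. In the test of the difference between responses, 0% of all genes tested were called in each of the 3 comparisons, with 555, 942 and 533 genes at an unadjusted p under 0.05 for cNSF-HA against PBS, fNSF-HA against PBS and cNSF-HA against fNSF-HA. DESeq2 called 0, 6 and 0 genes in these comparisons. The log2 response of MIR22HG differed from that after PBS by -0.36 with cNSF-HA (95% confidence interval -0.92 to 0.19) and by -0.41 with fNSF-HA (-0.96 to 0.14), with adjusted p-values of 0.999 and 0.680 in limma's test. The response of PVT1 differed by 0.29 between cNSF-HA and fNSF-HA cells (95% confidence interval -0.067 to 0.65, adjusted p = 0.710).

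The genes on either side of the transcripts were examined for the response to tBHP. FRMD8, which lies upstream of NEAT1 on the same strand, rose from a mean of 1143 to 2124 normalized counts (mean log2 change 0.87, standard error 0.074, adjusted p = 8.3e-09 from limma). SLC25A45, the next gene beyond it, rose by 0.99 from a low level (24.9 to 50.8). On the other side of MALAT1, LTBP3, which encodes a protein that binds latent TGF-beta, had a change of 0.17 that did not pass (adjusted p = 0.147 from limma).

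Next to PVT1, MYC, the transcription factor gene 53.1 kb upstream, rose by 0.19 (1476 to 1695 normalized counts, adjusted p = 0.0044), which was less than the 0.88 of PVT1. FAM84B, farther away on that side, had 8.84 normalized counts without tBHP and 18.2 with it and passed the filter on low values only through the libraries with tBHP, so its change of 0.91 is a description. On the far side FAM49B and ASAP1 fell by 0.55 and 0.24. At MIR22HG, the overlapping gene WDR81 had a log2 change of 0.29 that did not pass the threshold (94.6 to 119 normalized counts, adjusted p = 0.0696). PRPF8, a core splicing factor, changed by 0.038, SERPINF1 by 0.057 and SMYD4 by 0.053, and none of them passed. RILP had 8.83 normalized counts without tBHP and 16.6 with it, and it too passed the filter only through the libraries with tBHP.

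The lists of related genes gave the wider setting, and for each the counts refer to the mean response to tBHP. Of all genes tested, 32.6% were higher and 35.2% lower, with a median log2 change of -0.0064. This balance turned with edgeR, which called 5327 genes higher and 4181 lower (median 0.066), and with quantile normalization (4744 and 4640), against 4461 and 4816 with limma on the deposited values. Among 35 paraspeckle proteins, 10 were higher, 14 lower and 11 did not pass, with a median of -0.042. The largest changes were those of FIGN, a microtubule-severing protein (-1.55), AKAP8L (0.75) and FAM98A (-0.71). Among 34 nuclear speckle proteins, 13 were higher, 9 lower and 12 did not pass (median 0.035). DYRK3, a kinase that dissolves such condensates, rose by 0.97, the splicing-associated THRAP3 rose by 0.57, and THOC1, a subunit of the complex that couples transcription to RNA export, fell by 0.48.

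Among 40 other long noncoding RNAs, 13 were higher, 11 lower and 16 did not pass (median 0.056). LINC00473, which is known as a target of cAMP signalling, had 9.05 normalized counts without tBHP and 72.1 with it (log2 change 2.89), and passed the filter only through the libraries with tBHP. LINC-PINT, known as a p53 target, rose by 1.36 from 38.8 to 101 normalized counts. LINC00968 had 24.99 without tBHP and 7.61 with it (log2 change -1.63), and passed the filter only through the libraries without tBHP. The 0.88 of PVT1 was therefore within the range of this list.

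MIR22HG was compared with other transcripts that host microRNAs. Of the 20 that passed the filter, 2 were higher, 8 lower and 10 did not pass, with a median of -0.27. MIR17HG, the host of the miR-17 cluster, fell by 2.14 from 45.3 to 12.1 normalized counts. MIR210HG, whose microRNA is known as a hypoxia marker, fell by 1.77 from 36.6 to 10.5. MIR155HG, the host of the immune microRNA miR-155, fell by 1.17 from 109 to 49.0. With the GC and length trend removed, 6 of this list were higher, against 2 with the trend left in. In that setting 4393 of all 12528 genes were higher.

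Among 30 genes within the neighbourhoods of the 4 transcripts, 13 were higher, 4 lower and 13 did not pass (median 0.13). The largest changes were those of SLC43A2, an amino acid transporter (1.04), SLC25A45 (0.99) and CDC42EP2 (0.91). With the GC and length trend removed, 13 of the list were lower, against 4 with the trend left in. In that setting 4559 of all 12528 genes were lower. Of the 7 markers of other cell types that passed the filter, 4 were called higher and 3 lower. DES, TIE1 and CSPG4 had mean changes of 0.64, 0.59 and 0.30, and KRT19, RGS5 and CLDN4 had changes of -0.52, -0.34 and -0.31. VWF, at 8.28 normalized counts without tBHP and 17.7 with it, passed the filter only through the libraries with tBHP. The summed level over the whole list was 9802 to 10539 normalized counts without tBHP and 7771 to 16261 with it. Most of that sum was CSPG4, with a mean of 9110 normalized counts. Their part in the results was not tested, and in bulk samples fewer cells of a type and less RNA per cell cannot be told apart.

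**Figure D5:**
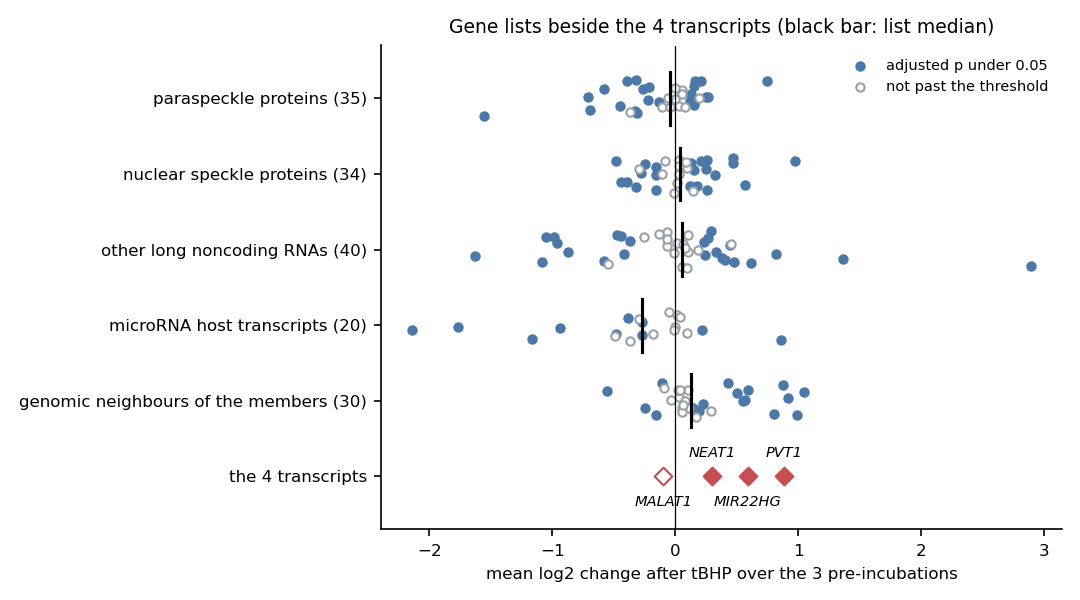
Mean log2 change after tBHP over the 3 pre-incubations (horizontal axis) for the genes of 5 lists, with the number tested in brackets, beside the 4 transcripts (diamonds). Filled points passed the threshold and black bars mark list medians, which run from -0.27 for microRNA host transcripts to 0.13 for genomic neighbours.

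The genes whose levels followed each transcript most closely were different for the 4, by Pearson correlation of log2 values over the 18 libraries among genes with a mean of at least 100 normalized counts. For PVT1 they included HBEGF, an EGF receptor ligand (r = 0.97), the lipid droplet gene PLIN2 (0.97), the stress ligand ULBP1 (0.97) and CCDC28A (0.97). For MIR22HG they were ARMCX6 (0.94), SAP130 (0.94), the splicing factor gene SF3A1 (0.93), ZNF629 (0.93) and RANBP10 (0.93). For NEAT1 they were the noncoding RNA SNHG23 (0.89), HERC2P2 (0.85), the noncoding RNA MEG3 (0.84), MTMR11 (0.83) and SYTL3 (0.82). For MALAT1 they were HNRNPH1, which encodes a splicing regulator (0.87), RNF170 (0.86), C12orf45 (0.80), ZNF720 (0.79) and FAM173B (0.79). The libraries fall into those with and those without tBHP, which these correlations share with the response itself. With deviations from the group means in place of the levels, 1 of the 5 genes was kept for NEAT1, PVT1 and MIR22HG and 2 for MALAT1.

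The promoters of MIR22HG and MALAT1 are shown as a description, and nothing here tested whether their sequences have a part in the changes after tBHP. MALAT1 did not pass the threshold as deposited and rose once the GC and length trend was removed. The RefSeq table (GRCh38.p14, from 250 bases before to 50 after each start) held a promoter for MIR22HG and 2 for MALAT1, and the upstream promoter of MALAT1 is shown beside that of MIR22HG. Capitals mark matches to the motifs searched on both strands.
MIR22HG, chr17:1716161-1716460, minus strand: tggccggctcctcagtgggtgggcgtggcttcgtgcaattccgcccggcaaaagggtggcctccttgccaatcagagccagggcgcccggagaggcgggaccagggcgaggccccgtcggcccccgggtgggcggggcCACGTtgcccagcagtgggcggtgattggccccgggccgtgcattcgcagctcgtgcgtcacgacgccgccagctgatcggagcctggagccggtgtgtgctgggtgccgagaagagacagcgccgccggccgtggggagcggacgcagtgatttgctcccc
MALAT1, chr11:65497488-65497787, plus strand: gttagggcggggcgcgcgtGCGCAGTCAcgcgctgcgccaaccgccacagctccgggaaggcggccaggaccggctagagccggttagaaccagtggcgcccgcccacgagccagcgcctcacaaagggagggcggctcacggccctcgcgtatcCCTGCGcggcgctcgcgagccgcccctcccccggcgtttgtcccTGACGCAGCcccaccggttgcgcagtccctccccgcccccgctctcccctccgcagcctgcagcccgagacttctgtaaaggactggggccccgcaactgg
The antioxidant response element, searched as TGACNNNGC, matched the MALAT1 promoter at position -231 on the opposite strand and at position -51 on the same strand, counted from the start of the transcript. It was held by 13.4% of the 35116 promoters of this length, and by neither the MIR22HG window nor the second MALAT1 window. The MIR22HG window held ACGTG, the core of the hypoxia response element, at position -112, as did 21.4% of all promoters. CCTGCG, the motif that the study names for the CD44 intracellular domain, matched both MALAT1 windows and was held by 23.5% of all promoters. AP-1 (TGANTCA, 7.71% of promoters), the cAMP response element (TGACGTCA, 1.85%), the E-box (CACGTG, 7.26%), the heat shock core (GAANNTTC, 6.77%), the p53 half-site (6.63%) and the CArG box (1.29%) had no match in these windows. TATAAA matched the second MALAT1 window at position -30, as it did in 11.5% of promoters. Any match to CACGTG also counts for ACGTG, which lies inside it. The windows of MIR22HG and of the upstream MALAT1 start were rich in GC, at 72.3% and 73.7%, against a median of 58.7% over all promoters.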

How the data were processed

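RNA was sequenced from 18 IMR90 libraries in 6 groups of 3, which were taken from the labels. Per the labels and the submitters' processing notes, the authors made TruSeq RNA V2 libraries, sequenced single-end reads of 100 nt and used Trimmomatic 0.32, STAR 2.5.2b, featureCounts (Subread 1.5.0-p3) and DESeq2 with GRCh38.p7; the annotation and the strand setting are not given in the sources used here. The deposited signal is the count of reads on a gene over the library's size factor: 100% of the values were whole multiples of 1 read (tolerance 0.001 of a read). The table also holds 3 columns of the authors' own test (a p-value, a q-value and a rank), which were not used. The sequencing depth was 20261103 to 26287660 reads on genes.

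Log2(value + 1) was tested with limma 3.58.1 in R 4.3.3 (two-sided, with a trend of the variance with the mean and a coefficient for each group, adjusted by Benjamini-Hochberg over the 13686 genes with a mean of at least 10, threshold 0.05), so that changes of low genes are understated. The tests were also run on recovered reads with edgeR 4.0.16, which called 7281 genes in the tBHP response of PBS cells against 6995 for limma, and DESeq2 1.42.0, which called 7181. The other alternatives were other pseudocounts, filters and scalings, a replicate block, only the compared groups, each library left out and the removal of a trend with transcript GC content and length (12528 genes, or 91.5%). Exact permutation tests exchanged tBHP labels within pre-incubations. Scripts were tested on simulated data. The genes named are the 4 transcripts, the 5 genes most correlated with each, the neighbours on each side and, of each list, the 3 called genes with the largest change, and 2 that this rule gives are not reported here. The 4 transcripts and the gene lists were chosen with earlier results of these data known. The labels do not say whether same-numbered libraries are paired, and the main fit did not pair them. Deviations of same-numbered libraries correlated above 0.1 in all 3 pairs of no comparison, with single values up to 0.33. This cannot exclude a pairing.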

Additional observations from a re-analysis of the deposited data

How the results depend on the processing

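Under the 11 other settings that kept all libraries (10 for MIR22HG, which a minimum mean of 50 removed), PVT1 kept its direction and its call in each response to tBHP, and so did the mean responses of NEAT1 (0.27 to 0.41) and MIR22HG (0.43 to 0.67). The log2 values below are those that did not hold, and the cause was not tested unless it is given. With the GC and length trend removed, MALAT1 changed by 0.38 after PBS and 0.26 after fNSF-HA (both past the threshold), 0.18 after cNSF-HA and 0.27 on average, and after cNSF-HA NEAT1 gained a call (0.35) and MIR22HG lost its call (0.30). The same setting turned differences of MALAT1 (0.044 for cNSF-HA minus PBS without tBHP, 0.12 for cNSF-HA minus fNSF-HA after it) and of NEAT1 (0.042 for cNSF-HA minus PBS after tBHP), and differences between responses of MALAT1 (-0.12, fNSF-HA against PBS) and MIR22HG (-0.029, cNSF-HA against fNSF-HA). With no filter 31441 genes were adjusted for, and NEAT1 after PBS (0.32) and MIR22HG after cNSF-HA (0.48) lost their calls. Quantile normalization gave NEAT1 0.28 after PBS, which lost the call, and MALAT1 -0.0038 after fNSF-HA. edgeR gave MIR22HG a call after fNSF-HA (0.50) and MALAT1 0.0055 after PBS and 0.0011 for cNSF-HA minus PBS without tBHP. With only the groups compared, MIR22HG after cNSF-HA lost its call (0.48), and 1 of the 4 transcripts, NEAT1, was called for cNSF-HA minus fNSF-HA without tBHP.

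With each library left out in turn, responses to tBHP ran from 0.24 to 0.46 for NEAT1, from -0.19 to 0.12 for MALAT1 (both after PBS), from 0.37 to 0.66 for MIR22HG after cNSF-HA, and after fNSF-HA from 0.33 to 0.44 for NEAT1 and from -0.090 to 0.083 for MALAT1. After cNSF-HA, no direction or call changed for NEAT1 (0.056 to 0.28) or MALAT1 (-0.37 to -0.15). MALAT1 turned after PBS without replicate 1 with tBHP. It also turned after fNSF-HA without replicate 1 of the cells without tBHP and without replicate 2 with it. Differences that turned were those of cNSF-HA minus PBS without tBHP (MALAT1 -0.099 to 0.12, PVT1 -0.19 to 0.029) and after it (NEAT1 -0.20 to 0.050, MIR22HG -0.30 to 0.069), fNSF-HA minus PBS after tBHP (MALAT1 -0.24 to 0.075) and cNSF-HA minus fNSF-HA after tBHP (NEAT1 -0.023 to 0.145, PVT1 -0.097 to 0.040). Differences between responses ran from -0.065 to 0.157 for NEAT1 and from -0.11 to 0.20 for MALAT1 (fNSF-HA against PBS), and from -0.064 to 0.222 for MIR22HG (cNSF-HA against fNSF-HA). None of these differences passed the threshold.

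Over all genes, the count for fNSF-HA against PBS after tBHP went from 19 to 61 with the replicate block, to 442 with DESeq2, to 36 with edgeR, to 30 with a minimum mean of 50, to 3 with no filter, to 2 without the GC and length trend and to 0 with only the groups compared, and from 0 to 4024 over single libraries left out, the highest without replicate 3 of fNSF-HA with tBHP. The replicate block changed no call of the 4 transcripts (mean responses 0.30, -0.10, 0.88 and 0.59 for NEAT1, MALAT1, PVT1 and MIR22HG). For cNSF-HA against fNSF-HA the count went from 0 to 980 with only the groups compared without tBHP, and from 0 to 923 with DESeq2 and 2 without the trend after tBHP. For fNSF-HA against PBS without tBHP it went from 0 to 21 with only the groups compared, 3 with DESeq2 and 5 with no filter, and DESeq2 called 5 genes between cNSF-HA and PBS after tBHP and 6 for the responses of fNSF-HA against PBS. With the trend removed, 4 nuclear speckle proteins were lower (9 with it), beside 4559 of all 12528 genes. edgeR called 2 genomic neighbours lower (4 in limma), beside 4181 of all 13686 genes. By Spearman correlation 3, 2, 1 and 4 of the 5 genes most like NEAT1, MALAT1, PVT1 and MIR22HG were kept. MIR22HG had 37 to 69 reads in a library, which limits the precision of its values.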
